A study of Cricetulus griseus with 20 samples.

Results

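The zinc finger protein family was described in 113 of the 10318 mRNAs of the deposited table, namely the rows whose ID the study's supplementary tables pair with a symbol made of Zfp or Znf and a number. One gene of that form was left out by the rule and is not reported here. Inguinal white adipose tissue (iWAT) of female Chinese hamsters (*Cricetulus griseus*) aged 6 weeks was pooled, and its preadipocytes were grown to confluence (D0) and induced with dexamethasone, insulin and IBMX. Cells labelled Hypoxia spent the 24 h before collection in 1% O2, and cells labelled Normoxia stayed in conventional air. Each of the 10 groups, D0, D1, D3, D7 and D11 under either label, has 2 RNA libraries, 20 in all. All groups therefore share the same pooled donor tissue, and the 2 libraries of each group are biological replicates in the wording of the study. Whether they came from separate cultures is not given in the sources used here, so the p-values below measure the spread between these libraries, which may be in part technical.

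Most proteins of this naming series carry tandem C2H2 zinc fingers, small folds in which a pair of cysteines and a pair of histidines hold a zinc ion and which read DNA a few bases at a time. Many mouse and human members also carry a KRAB domain, which recruits the corepressor Trim28 and through it histone methylation, and which silences transposable elements and some genes. Other members work without it, as activators at promoters, as chromatin subunits or as RNA-binding proteins. Low oxygen acts on transcription mainly through the hypoxia-inducible factors (HIF), whose targets include glucose transport and glycolysis genes. Which hamster members carry a KRAB domain was not determined here.

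The way the members got their names limits every count below. Of the 113, 91 have a symbol because the study listed them as differentially expressed (DE) in these same libraries, 69 of them at D7 and 46 at D11 on the part of the D11 list at hand, and 22 are named only as neighbours of a DE lncRNA. Counts at D7 and D11 over all members are therefore partly fixed by the choice, and the 22 neighbours are given beside them. The p-value of a member at a timepoint where the study listed it as DE is likewise a description. Those 22 are on no DE list at D0 to D7, so a difference over 2-fold was in effect kept out of them at those timepoints. Values are TPM, an abundance corrected for transcript length and library depth, and tests used limma on log2(TPM + 1) over all 10318 mRNAs with an adjusted p under 0.05. A fold change on that scale understates the change of low genes, and 68 of the 113 members had a mean below 5 TPM. Many zinc finger genes have near-identical copies between which shared reads are divided by estimation, which adds uncertainty that was not tested.

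The late libraries need a caution before any result. A list of 10 hypoxia genes (Slc2a1, Bnip3, Ddit4, Ankrd37, Egln1, Hilpda, Ndufa4l2, Gapdh, Pgk1 and Ldha) was higher under hypoxia in 10 of 10 at D0, D1 and D3 and in 8 of 10 at D7. At D11, 2 of them were higher and 3 lower, and their summed level was 9520 and 10534 TPM in the libraries labelled Normoxia D11 against 6863 and 7159 TPM in those labelled Hypoxia D11. Over all mRNAs, the libraries labelled Normoxia D11 had a median absolute difference of 0.29 on the log2 scale from Hypoxia D7 and of 0.37 from Normoxia D7. For the members the same distances were 0.22 and 0.62, a description only, since many members were named for their D7 or D11 difference. An exchange of the Hypoxia and Normoxia labels at D11 and a true opposite response at D11 cannot be told apart from these files. With exchanged labels each D11 direction of hypoxia against normoxia below would turn. The contrasts of D11 with D0 would then compare oxygen as well as stage. The study took the labels as given, and its HIF protein, triglyceride and qRT-PCR measurements, which include D11 and bear on the labels, were not analysed here. Of the 10 adipocyte markers listed, 6 have a symbol at hand and their summed level was 66.9 to 219 TPM in the D0, D1 and D3 libraries and 401 to 589 TPM in those of D7 and D11, none at 0. Of the other cell lists, 1 of 8 fibroblast, 1 of 5 endothelial, 2 of 5 epithelial and 0 of 6 macrophage markers have a symbol, so the presence of those cells could hardly be checked. Pecam1, an endothelial gene, was at 0.68 and 0.691 TPM in Hypoxia D7, 1.84 and 1.86 in Normoxia D7, 0.662 and 0.793 in Normoxia D11 and 1.94 and 2.13 in Hypoxia D11, so it moved with the family at both late timepoints. Pdgfra, a preadipocyte receptor, also fell at D7, from 20.5 to 11 TPM, and was higher at D11, at 24.1 against 11. Both were called higher under hypoxia at D0, D1 and D3, Pecam1 by 0.389, 0.547 and 0.53 and Pdgfra by 0.64, 0.958 and 0.93 (log2). The median member changed by -0.00627, -0.0174 and -0.0298 at those timepoints. The part of either marker in the results was not tested.

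Zinc finger mRNAs were of low abundance. The mean TPM of a member ranged from 0.669 to 57.1 with a median of 3.72, and no member was at 0 in any library. The median member stood at 4.47 TPM in Normoxia D0 and 4.77 in Hypoxia D0, and at 3.47 to 3.69 in the 4 groups of D1 and D3 and in Normoxia D7. It was 1.56 in Hypoxia D7, 1.55 in Normoxia D11 and 5.24 in Hypoxia D11. The 113 members were thus low in a pair of groups, while the median of all mRNAs in those 2 groups was 6.02 and 7.33 TPM against 7.42 to 11.3 TPM in the other 8. Since 69 members were listed as DE at D7 and 46 at D11, the levels of the members in these groups are partly fixed by the choice. Relative to all mRNAs, the median hypoxia effect of the 22 neighbours was -0.07 at D7 and 0.08 at D11. The summed TPM of the 113 members was 405 and 340.2 in the libraries of Hypoxia D7 and 410.1 and 496.1 in those of Normoxia D11, and between 590.7 and 953.2 in the other 16 libraries. As a share of the table's TPM this was 0.0982% to 0.145% in those 4 libraries and 0.201% to 0.252% in the others. In this bulk RNA, fewer cells of a type and less RNA per cell cannot be told apart.

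**Figure D1:**
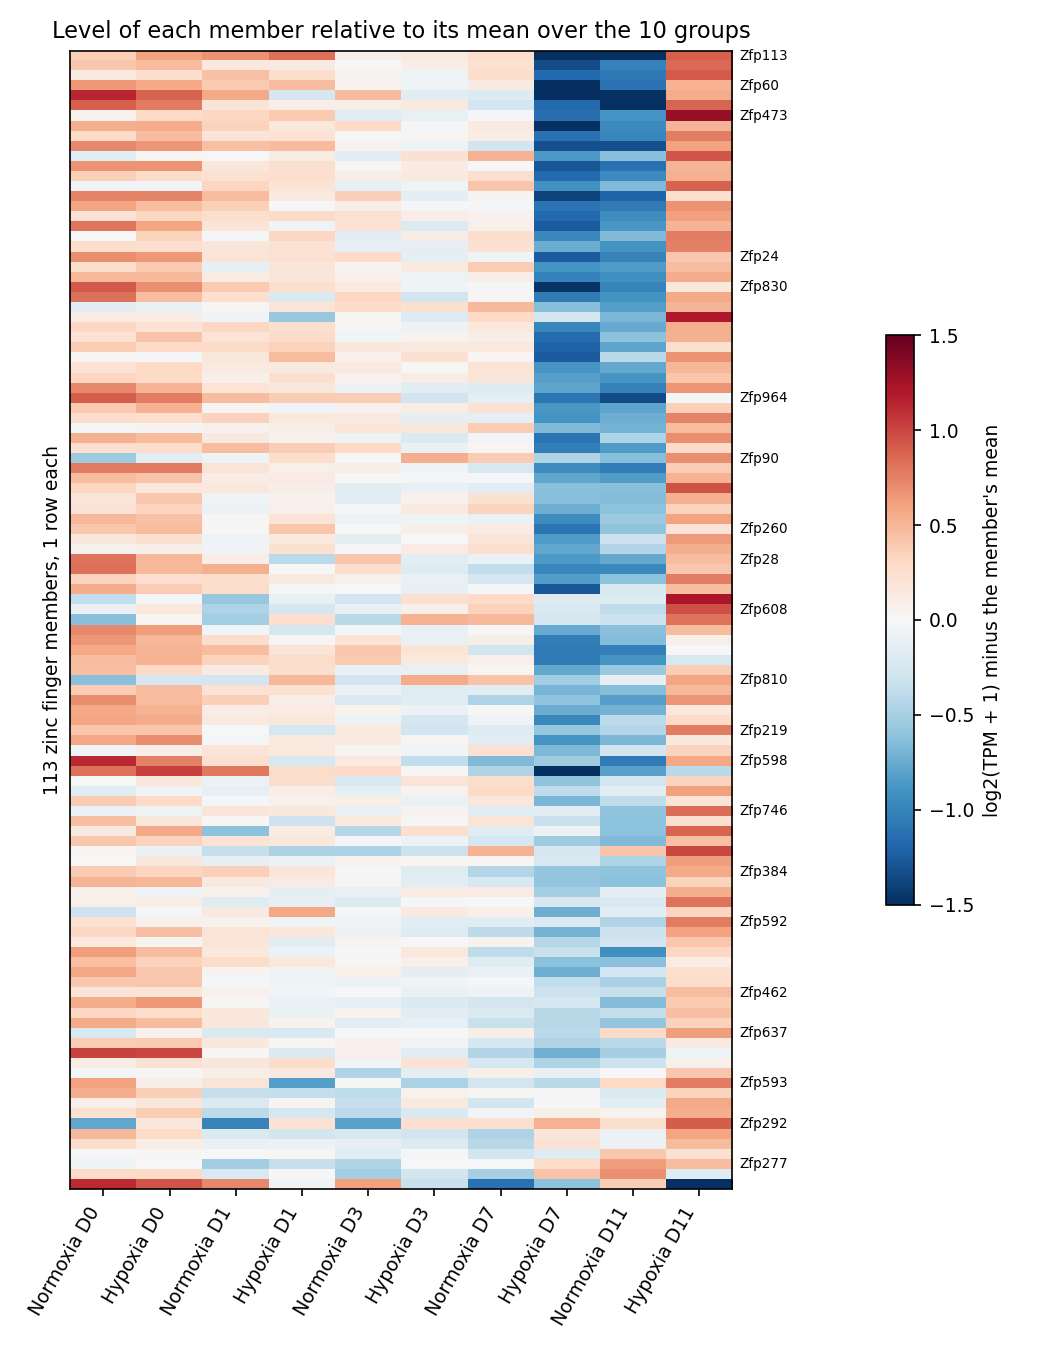
Heat map of the 113 members (rows, ordered by the difference between the hypoxia effects at D11 and D7) in the 10 groups (columns), coloured by the group mean of log2(TPM + 1) minus the member's mean over the groups; some of the named members are marked. The columns of Hypoxia D7 and Normoxia D11 are blue for most rows, 67 members having their lowest mean in Hypoxia D7 and 29 in Normoxia D11, and 63 have their highest in Hypoxia D11.

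By group, 63 members had their highest mean in Hypoxia D11 and 34 in Normoxia D0, where the shares of all mRNAs were 41.6% and 25.8%. The lowest mean was in Hypoxia D7 for 67 members and in Normoxia D11 for 29, where the shares of all mRNAs were 37.6% and 16.8%. The most abundant members were Zfp629, Zfp260 (a cardiac transcription factor in mouse), Zfp277 (a partner of Polycomb proteins in mouse fibroblasts), Zfp367 (a gene of cycling human cells) and Zfp830 (linked to pre-mRNA splicing). Zfp629 (ENSCGRG00015024397) had 57.6 and 83.2 TPM in Normoxia D0 and 61.5 and 86.2 in Hypoxia D0. Its libraries ranged from 44.0 to 69.1 TPM over D1, D3 and Normoxia D7, and were at 23.6 and 16.8 in Hypoxia D7, 19.2 and 33.1 in Normoxia D11 and 91.7 and 97.2 in Hypoxia D11. The 4 low libraries of Zfp629 did not overlap any of the other 16. Zfp260 was low in the same 4 libraries, at 10.2 to 19.9 TPM against 26.9 to 42.0 in the rest, but had its highest mean in Hypoxia D0.

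In undifferentiated and early cells (D0, D1 and D3), hypoxia changed few members, in shares close to or below those of all mRNAs. At D0, 3 members were higher and 3 lower, beside 3.39% of all mRNAs higher and 2.7% lower. At D1, 8 were higher and 12 lower (7.36% and 18.9% of all mRNAs), and at D3, 9 were higher and 12 lower (10.4% and 19.3% of all mRNAs). The median member differed from the median of all mRNAs by 0.04 at D0, 0.07 at D1 and 0.04 at D3 on the log2 scale. With each library centred on its own median, 8 were higher and 4 lower at D0 (6.76% and 5.25% of all mRNAs), 21 and 9 at D1 (17.1% and 16.6%) and 20 and 12 at D3 (20.9% and 17.3%). Over the 3 timepoints, 11 members were higher at least once, 17 were lower at least once, none was called both ways and 85 were called at none. These counts are small and several rest on 1 library: without any 1 of the 4 D0 libraries the 3 higher members became 1 or 2 and the 3 lower became 0 or 1, without Normoxia D1 replicate 2 or Hypoxia D1 replicate 2 the 8 higher members of D1 became 3 or 5, and without Normoxia D3 replicate 2 or Hypoxia D3 replicate 2 the 12 lower members of D3 became 6 or 7.

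Zfp292, Zfp395 and Zfp654 were higher under hypoxia at each of the 3 early timepoints. Zfp292 (ENSCGRG00015006168), first known as an activator of the growth hormone gene in the pituitary, had 6.53 and 6.55 TPM in Normoxia D0 and 14.2 and 13.1 in Hypoxia D0. It had 5.66 and 5.25 against 12.7 and 15.5 TPM at D1 and 5.63 and 7.24 against 14.7 and 14.1 at D3. Every hypoxic library of Zfp292 was above every normoxic one in these 12, with log2 fold changes of 0.95 ± 0.14 (SE) at D0, 1.22 ± 0.14 at D1 and 1.06 ± 0.14 at D3 (limma, adjusted p = 1.5e-04, 3.7e-06 and 1.8e-05). The normoxic level of Zfp292 then rose to 13.8 and 14.8 TPM at D7, near the hypoxic level, and the D7 difference of 0.28 ± 0.14 did not pass the test (adjusted p = 0.1). The study listed Zfp292 as DE at D0, D1 and D3, so its early calls are a description.

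Zfp395, whose human counterpart ZNF395 is induced by low oxygen, had 3.40 and 3.11 TPM in Normoxia D0 and 5.09 and 4.45 in Hypoxia D0, 1.5 and 1.56 against 2.92 and 3.43 at D1, and 1.85 and 1.91 against 3.54 and 3.61 at D3. The groups did not overlap at any of the 3 timepoints, and the log2 fold changes were 0.44 ± 0.11, 0.72 ± 0.11 and 0.67 ± 0.11 (limma, adjusted p = 0.017, 5.8e-05 and 1.2e-04). Zfp654 rose from 3.29 and 3.24 to 6.08 and 5.41 TPM at D0, from 3.65 and 3.62 to 5.79 and 8.12 at D1, and from 3.27 and 4.78 to 8.90 and 8.07 at D3. The D0 calls of Zfp395 and Zfp654 were lost without a library, Zfp395 in 3 of 4 cases and Zfp654 in each of 4. The study listed Zfp395 as DE at D1 and Zfp654 at D3, so those calls are a description. Zfp810 was higher at D1, with 15.4 and 12.7 TPM against 7.94 and 7.44, and at D3, with 16.6 and 12.7 against 7.45 and 8.10. Its 2 early log2 fold changes, 0.79 ± 0.23 and 0.83 ± 0.23 (limma, adjusted p = 0.015 and 0.011), each lost their call when either of 2 libraries was left out. Zfp516, a cold-induced activator of the brown fat programme in mouse, passed the test among the early timepoints at D3 alone, at 4.25 and 4.05 TPM against 2.51 and 2.78. Zfp277 was likewise higher at D3, at 33.7 and 33.0 TPM against 23.0 and 25.1, a call that was lost without 3 of the 4 libraries in turn.

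**Figure D2:**
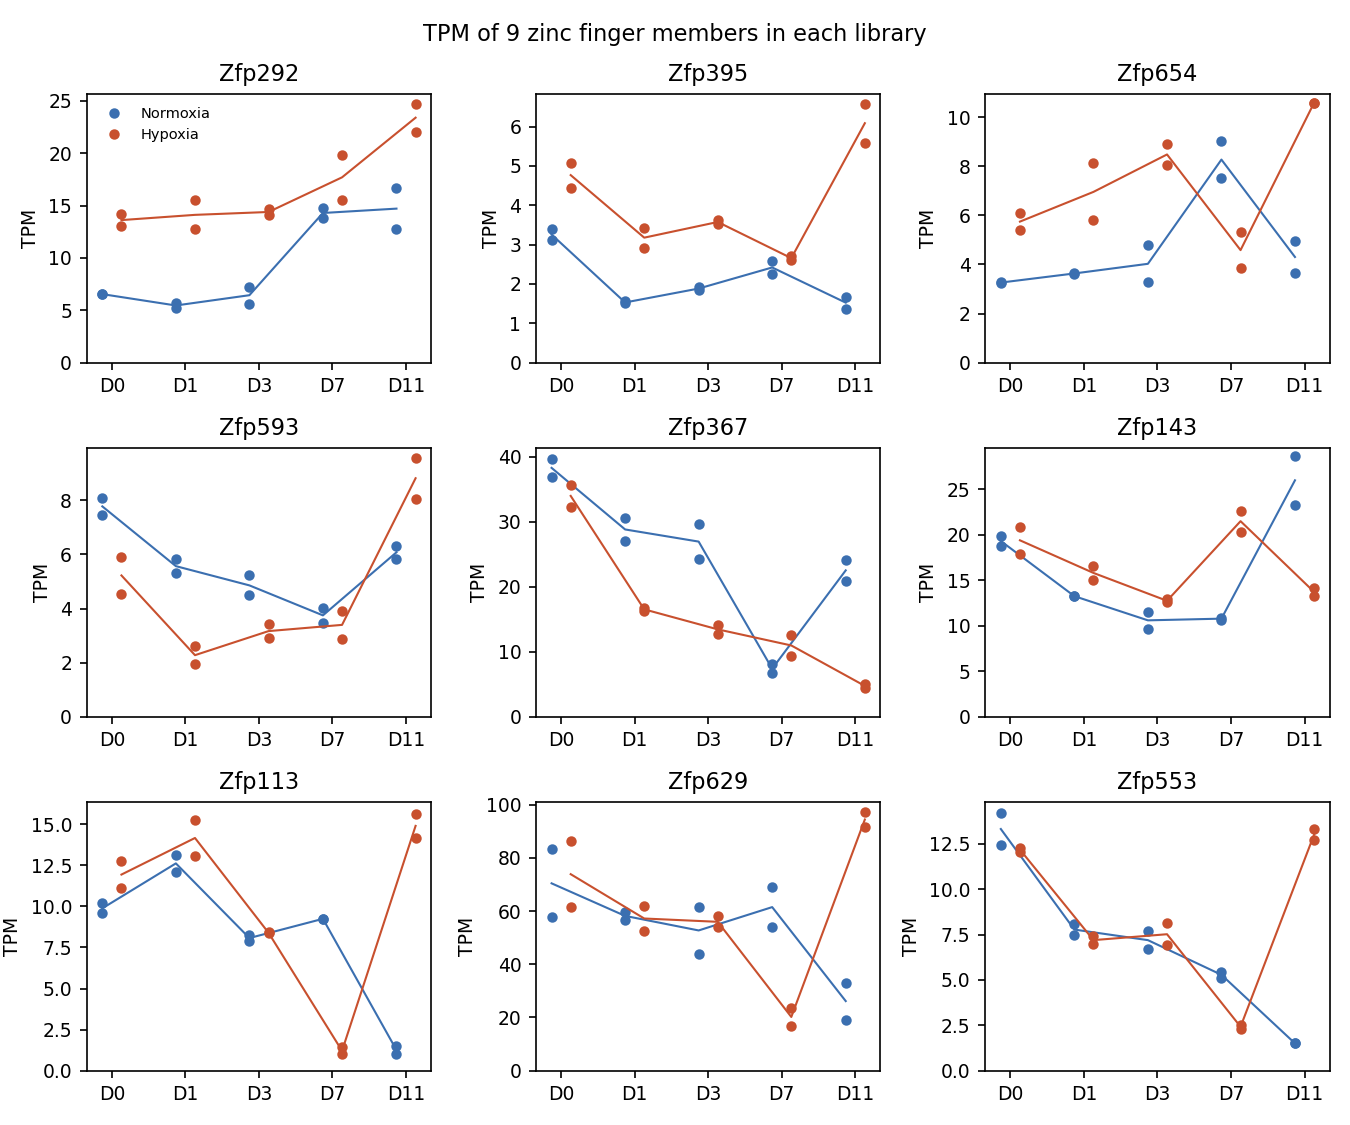
TPM of 9 members in each of the 20 libraries by timepoint (points; blue, normoxia; red, hypoxia; lines join the group means; each vertical axis starts at 0). Zfp292, Zfp395 and Zfp654 are higher in hypoxia at D0, D1 and D3, Zfp593 is lower there, and Zfp113, Zfp629 and Zfp553 are low in Hypoxia D7 and Normoxia D11, where Zfp143 is high.

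The members that were lower early under hypoxia include a pair that act on ribosomes. Zfp593, whose yeast counterpart works in the assembly and export of the large ribosomal subunit, had 8.08 and 7.48 TPM in Normoxia D0 and 5.91 and 4.54 in Hypoxia D0. At D1 it had 5.31 and 5.83 against 1.95 and 2.6 TPM, the largest early fall of any member at -1.01 ± 0.14 (limma, adjusted p = 3.2e-05), and at D3 4.48 and 5.23 against 2.91 and 3.42. Zfp598, the ubiquitin ligase that senses collided ribosomes in human cells, had 15.6 and 17.0 against 11.5 and 13.2 TPM at D0, 8.03 and 8.84 against 5.44 and 5.92 at D1, and 7.25 and 8.21 against 5.28 and 4.94 at D3. Both were lower with no overlap at all 3 timepoints, as was Zfp28 (3.59 and 3.23 against 2.6 and 2.44 TPM at D0). The D0 calls of Zfp28 and Zfp598 were lost without any 1 of the 4 libraries, and that of Zfp593 without 3 of them. The study listed Zfp593 as DE at D1, so its D1 test is a description.

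Zfp367 (ENSCGRG00015013062) did not pass the test at D0, with 36.9 and 39.7 TPM in normoxia and 32.3 and 35.6 in hypoxia. It fell at D1, from 27.1 and 30.5 to 16.3 and 16.7 TPM, and at D3, from 24.2 and 29.6 to 14.1 and 12.8, with log2 fold changes of -0.77 ± 0.14 and -0.95 ± 0.14 (limma, adjusted p = 3.6e-04 and 3.9e-05). The study listed Zfp367 as DE at D3, so its D3 test is a description. Zfp239 fell from 5.48 and 5.35 to 2.41 and 2.86 TPM at D1 and from 4.73 and 5.31 to 2.97 and 2.78 at D3. Zfp512b and Zfp566 also fell at D1 and D3, by 0.46 to 0.58 on the log2 scale. Zfp964 fell at D3, from 2.44 and 3.56 to 1.74 and 1.33 TPM. At D3 the call of Zfp512b was lost without Normoxia D3 replicate 2 and that of Zfp566 without either second replicate, and at D1 the call of Zfp566 was lost without 3 of the 4 libraries in turn.

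At D7, hypoxia lowered most of the family. Of the 113 members, 86 were lower and 4 higher, beside 39.2% of all mRNAs lower and 9.97% higher, and the median log2 fold change was -0.78 against -0.19 for all mRNAs. Relative to all mRNAs the median member was lower by -0.58, and 91 of 113 lay below the median of all mRNAs. Over the 3858 mRNAs with a symbol, 47.5% were lower and 11.4% higher, with a relative median of -0.0765. With each library centred on its own median, 77 members were lower and 13 higher, beside 23.1% and 31.2% of all mRNAs. The median member fell with centred (-0.52) and quantile normalized (-0.50) values too. All 69 members on the D7 DE list passed the test, 66 lower and 3 higher, which the choice fixed. Of the 44 not on that list, 20 were lower and 1 higher, a share of 45.5% beside the 39.2% of all mRNAs.

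Zfp113 (ENSCGRG00015005197) fell most, from 9.24 and 9.25 TPM in Normoxia D7 to 1.42 and 1.00 in Hypoxia D7, a log2 fold change of -2.22 ± 0.12 (limma, adjusted p = 2.4e-10). Zfp60 fell from 4.84 and 4.62 to 0.98 and 0.49 TPM (-1.74 ± 0.14, adjusted p = 2.4e-08), Zfp386 from 10.4 and 10.7 to 3.19 and 1.97 (-1.71 ± 0.15, adjusted p = 5.9e-08) and Zfp629 from 69.1 and 53.9 to 23.6 and 16.8 (-1.57 ± 0.23, adjusted p = 1.6e-05). In each of these 4 genes both hypoxic libraries lay below both normoxic ones. All 4 are on the D7 DE list, so their D7 tests are a description. Zfp830 fell from 18.2 and 17.2 to 7.10 and 4.92 TPM and Zfp24, a repressor of the human VEGF gene, from 9.39 and 9.73 to 3.89 and 3.35. Zfp654 and Zfp810, which had been higher under hypoxia at D3, were lower at D7, at 5.32 and 3.85 against 7.52 and 9.03 TPM and at 5.83 and 6.98 against 14 and 12.5.

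The 4 members that were higher at D7 were Zfp143, Zfp335, Zfp574 and Zfp367. Zfp143 (ENSCGRG00015004977), an activator that sits at many promoters in human cells, had 10.7 and 10.9 TPM in normoxia and 22.7 and 20.3 in hypoxia, a log2 fold change of 0.93 ± 0.12 (limma, adjusted p = 3.2e-06). Zfp335, a subunit of a histone methyltransferase complex, rose from 1.06 and 1.32 to 2.12 and 2.65 TPM (0.63 ± 0.11, adjusted p = 8.5e-05). Zfp574 rose from 1.23 and 1.31 to 1.96 and 3.25 TPM (0.64 ± 0.13, adjusted p = 5.5e-04). Zfp367, which had fallen at D1 and D3, rose from 6.72 and 8.04 to 9.39 and 12.5 TPM (0.50 ± 0.14, adjusted p = 0.0046). Zfp143, Zfp335 and Zfp574 are on the D7 DE list, so their D7 tests are a description.

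At D11, nearly the whole family was higher in the libraries labelled Hypoxia. Of the 113 members, 109 were higher and 2 lower, beside 63.3% of all mRNAs higher and 13.2% lower. The median log2 fold change was 1.14 against 0.52 for all mRNAs, so the median member was 0.62 above the rest, and 101 of 113 lay above the median of all mRNAs. Over the 3858 mRNAs with a symbol, 71.5% were higher and 12.7% lower, with a relative median of 0.235. With centred libraries 79 were higher and 5 lower, beside 32.6% and 38.9% of all mRNAs. Without Normoxia D11 replicate 1 the 2 lower members became 4. Of the 67 members not on the D11 DE list at hand, 65 were higher and 0 lower, but part of that list was not at hand, so some of the 67 may have been named for it.

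Zfp113 had 1.02 and 1.49 TPM in Normoxia D11 and 15.7 and 14.2 in Hypoxia D11, the largest difference of any member at 2.82 ± 0.12 (limma, adjusted p = 1.8e-12). Zfp553 had 1.5 and 1.51 against 12.7 and 13.3 TPM (2.48 ± 0.11, adjusted p = 1.5e-12). Zfp473, a human histone mRNA processing factor, had 1.83 and 1.73 against 11 and 12.6 TPM (2.20 ± 0.12, adjusted p = 2.2e-11), and Zfp239 0.60 and 0.50 against 5.47 and 5.29 (2.04 ± 0.10, adjusted p = 1.2e-11). In these 4 genes the hypoxic libraries were at or above the levels of Normoxia D7, and the normoxic ones far below them. The 2 lower members were Zfp143, at 23.3 and 28.7 TPM in normoxia and 14.2 and 13.2 in hypoxia (-0.87 ± 0.12, adjusted p = 1.6e-06), and Zfp367, at 20.9 and 24.1 against 5.09 and 4.37 (-2.04 ± 0.14, adjusted p = 2.1e-10). Zfp277, at 45.2 and 59.2 against 44.7 and 48.0 TPM, and Zfp800 (-0.18 on the log2 scale) did not pass the test. Zfp113, Zfp239, Zfp143 and Zfp367 are on the D11 DE list at hand, so their D11 tests are a description. Zfp553 and Zfp473 are not on the part at hand, but they were picked as among the largest D11 rises. Their D11 tests are therefore a description as well.

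**Figure D3:**
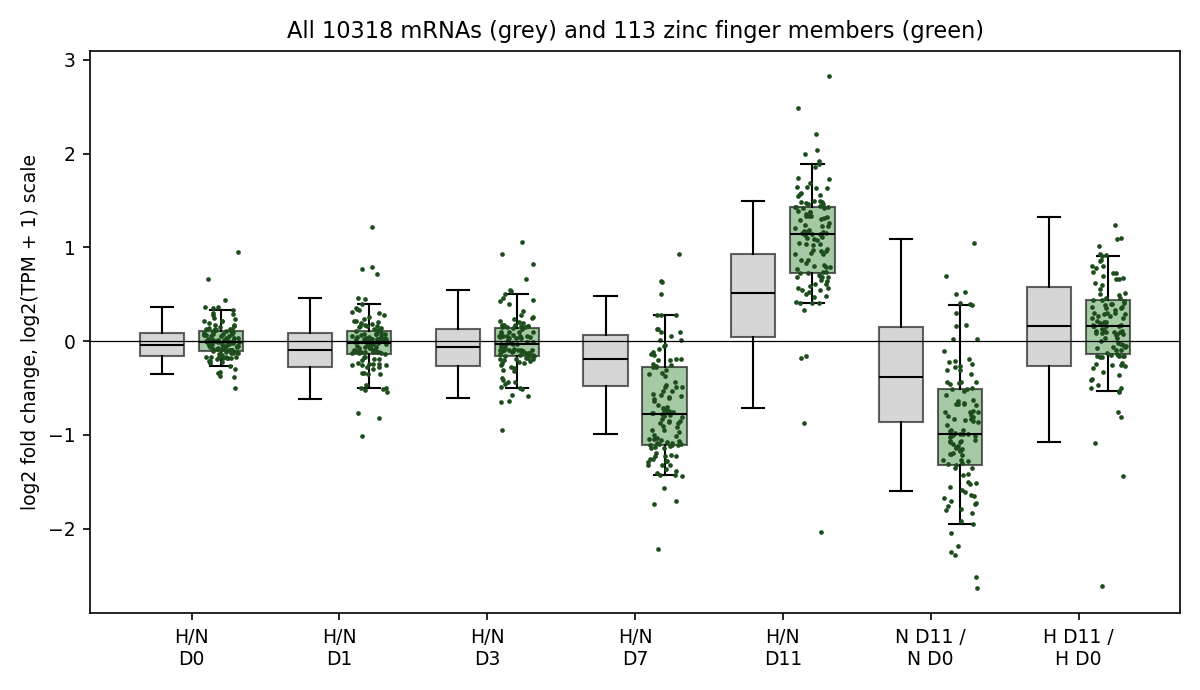
Log2 fold changes of all 10318 mRNAs (grey) and of the 113 members (green; points are members) for hypoxia against normoxia (H/N) at each timepoint and for D11 against D0 in normoxia (N) and hypoxia (H); boxes span the quartiles with the median as a line, and whiskers the 5th to 95th percentiles. The green median lies at -0.78 against -0.19 at D7, at 1.14 against 0.52 at D11 and at -0.99 against -0.38 for normoxia D11 over D0, the same order as with centred libraries.

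Whether the hypoxia effects at D7 and D11 differed, not whether their signs were opposite, was tested as their difference within the same model. The D11 effect minus the D7 effect was positive in 106 members and negative in 3, beside 62.6% and 12.1% of all mRNAs. Its median was 1.88 against 0.70. With centred libraries it was positive in 92 and negative in 8, beside 30.5% and 41% of all mRNAs. Of the 22 neighbours 20 were positive and 1 negative, with a median 0.33 above that of all mRNAs against 1.18 for the 113. With centred libraries 9 of the 22 were positive and 3 negative, and with quantile normalization their median was 0.13. Of the 113 members, 86 were lower at D7 and higher at D11, beside 31.1% of all mRNAs, and 2, Zfp143 and Zfp367, were higher at D7 and lower at D11. Of the 22 neighbours 10 were lower at D7 and higher at D11, a share of 45.5%. Across members the D7 and D11 effects had r = -0.57, against -0.41 across all mRNAs and -0.295 across the neighbours, a description over genes that share the same 8 libraries. The difference was 5.04 ± 0.17 for Zfp113, 3.43 ± 0.32 for Zfp629 and -2.54 ± 0.19 for Zfp367. Hypoxia D7 minus Normoxia D11 had a median of -0.11 over members and -0.20 over all mRNAs. The levels in Hypoxia D11 were above those in Normoxia D7 in 110 of 113 members, but also in 8933 of all 10318 mRNAs. The median difference between these groups was 0.47 over members and 0.51 over all mRNAs.

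**Figure D4:**
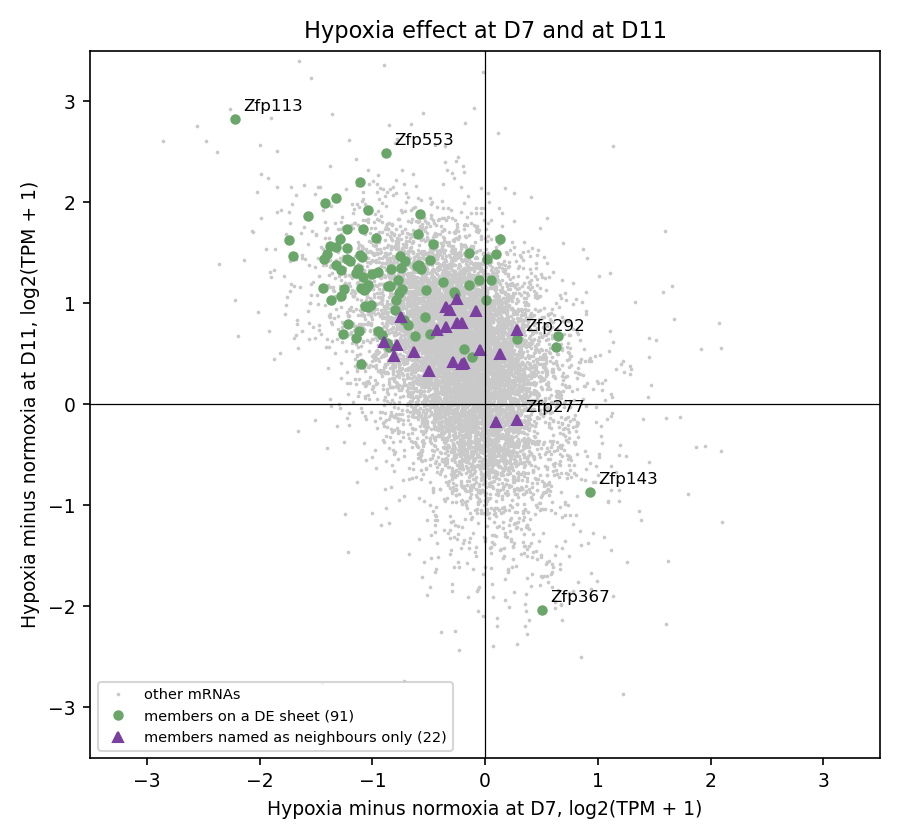
Hypoxia effect at D11 (vertical axis) against that at D7 (horizontal axis), both as log2 fold changes, for members on a DE list of the study (green circles), members named as neighbours of a DE lncRNA only (purple triangles) and the other mRNAs (grey; 6 lie outside the axes). Most members lie at the upper left, lower at D7 and higher at D11, and Zfp143 and Zfp367 lie at the lower right; with centred or quantile normalized libraries the purple triangles centre near 0.

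The 22 members named only as neighbours gave smaller differences. At D7, 10 were lower and 0 higher, a share of 45.5% that is near the 39.2% of all mRNAs, with a median of -0.27. At D11, 20 were higher and 0 lower, with a median of 0.60, only 0.08 above that of all mRNAs. With centred libraries 6 of the 22 were lower and 4 higher at D7, and 7 were higher and 3 lower at D11, beside 23.1% lower and 31.2% higher and 32.6% higher and 38.9% lower of all mRNAs. With quantile normalization their medians were 0.0052 at D7 and -6.4e-04 at D11. Relative to all mRNAs the neighbours lay at -0.07 at D7 and 0.08 at D11, against -0.58 and 0.62 for all 113 members, of which the study had listed 91 as DE.

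Along differentiation under the Normoxia label, from D0 to D11, 95 members fell and 6 rose, beside 54.8% and 20.4% of all mRNAs, with medians of -0.99 and -0.38. The listed hypoxia genes were higher in 10 of 10 in the same contrast, with a median of 3.19. With exchanged D11 labels it would compare oxygen as well as stage, which was not tested. With centred libraries 76 fell and 13 rose, beside 34.7% and 41% of all mRNAs. This contrast was not used for naming, but it shares the Normoxia D11 libraries with the D11 DE list, and of the 22 neighbours 13 fell and 4 rose, with a median 0.11 below that of all mRNAs. Zfp239 fell from 8.53 and 8.63 to 0.60 and 0.50 TPM (-2.63 ± 0.10, adjusted p = 1.2e-13), Zfp553 from 12.4 and 14.2 to 1.5 and 1.51 (-2.51 ± 0.11, adjusted p = 3.0e-13), Zfp113 from 9.59 and 10.2 to 1.02 and 1.49, and Zfp964 from 4.74 and 4.79 to 0.14 and 0.28. Without Normoxia D11 replicate 2 the 6 that rose became 3. The 6 were Zfp143, Zfp184, Zfp277, Zfp292, Zfp637 and Zfp800. Zfp292 rose from 6.53 and 6.55 to 12.7 and 16.7 TPM (1.05 ± 0.14, adjusted p = 1.5e-06) and Zfp277 from 31.2 and 32.2 to 45.2 and 59.2 (0.69 ± 0.13, adjusted p = 8.6e-05). Zfp637 rose from 9.14 and 10.1 to 13.1 and 15.4 TPM.

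From Hypoxia D0 to Hypoxia D11, 42 members rose and 16 fell, beside 41.9% and 23.8% of all mRNAs, and the median member and the median mRNA both changed by 0.16. The same limit of the D11 labels holds for this contrast. With centred libraries 31 rose and 32 fell, beside 35.4% and 34.8% of all mRNAs. Zfp367 fell most, from 32.3 and 35.6 to 5.09 and 4.37 TPM (-2.61 ± 0.14, adjusted p = 7.2e-12). Zfp568, which silences a placental Igf2 transcript in mouse, fell from 30.5 and 27.7 to 13.0 and 13.4 TPM, and in normoxia from 28.3 and 30.4 to 8.83 and 10.5. Most of the decline of Zfp568 lay between D0 and D1, where its normoxic level went to 14.1 and 14.3 TPM.

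Zfp516, Zfp746 and Zfp395 did not pass the test at D7 and were higher at D11. Zfp516 had 2.6 and 3.09 against 3.17 and 4.20 TPM at D7 and 3.29 and 2.94 against 6.57 and 5.22 at D11 (0.74 ± 0.12, adjusted p = 1.4e-05). That D11 call was lost with centred and quantile normalized libraries. Zfp746, which represses the mitochondrial regulator Ppargc1a in mouse, was at 3.02 and 3.67 against 3.16 and 3.62 TPM at D7 and at 2.47 and 2.03 against 7.70 and 7.81 at D11. Zfp395 was at 2.26 and 2.58 against 2.61 and 2.70 TPM at D7 and at 1.37 and 1.68 against 6.58 and 5.59 at D11.

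Among chromatin members, Zfp592 and Zfp687, which form a complex in human cells, were both higher at D11, at 2.48 and 2.49 against 0.43 and 0.54 TPM and at 4.27 and 3.83 against 0.84 and 1.05. At D7 Zfp687 was lower, at 0.69 and 0.64 against 1.34 and 1.67 TPM, while Zfp592, at 0.78 and 0.69 against 0.70 and 0.91, did not pass the test. Zfp462, which keeps heterochromatin in place in mouse stem cells, had 0.57 and 0.70 against 0.41 and 0.34 TPM at D7, which did not pass the test, and 0.30 and 0.41 against 1.63 and 1.14 at D11. Only in Hypoxia D11 were both libraries of Zfp462 above 1 TPM, the limit for entering the deposited values. Its D11 difference is therefore partly fixed by that limit and is a description. Zfp335 was higher in hypoxia at both late timepoints, at D11 with 3.39 and 2.72 against 1.75 and 1.72 TPM, although that D11 call was lost with centred libraries and its sign turned with quantile normalization. Zfp574 gave the same order and lost its D11 call in the same way, with 4.06 and 3.39 against 2.05 and 1.85 TPM.

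Among the ribosome and RNA members, Zfp598 was at 3.93 and 4.02 against 4.22 and 4.68 TPM at D7 and at 2.79 and 2.79 against 10.8 and 10.8 at D11. Zfp593 had 3.47 and 4.03 against 2.87 and 3.92 TPM at D7, which did not pass the test, and 6.31 and 5.85 against 9.57 and 8.06 at D11, a rise of 0.47 ± 0.14 (adjusted p = 0.0052) that turned sign with centred and quantile normalized libraries. Zfp473 fell at D7 from 3.89 and 4.24 to 1.51 and 1.19 TPM. Of the other members of known function, Zfp219 (a Sox9 partner in cartilage), Zfp608 and Zfp90 were lower at D7 and higher at D11, by -0.38, -0.57 and -0.83 and by 1.21, 1.34 and 1.34 on the log2 scale. Zfp384, a regulator of matrix genes, did not pass the test at D7 (1.92 and 1.89 against 1.49 and 1.77 TPM) and was higher at D11 (1.45 and 1.72 against 5.45 and 4.28 TPM).

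The partners through which KRAB zinc finger proteins act were examined as a list of 29, of which 12 have a symbol at hand from the same tables. At D7, 6 of the 12 were lower and 0 higher, and at D11, 9 were higher and 2 lower, with a median 0.11 below all mRNAs at D7 and 0.69 above at D11. Shares of 50% lower at D7 and of 75% higher and 16.7% lower at D11 lay near those of all mRNAs, 39.2%, 63.3% and 13.2%. Over the 3858 mRNAs with a symbol the shares were 47.5%, 71.5% and 12.7%, and their D11 median lay 0.235 above that of all mRNAs. Trim28, the corepressor itself, went from 33.4 to 24.9 TPM at D7 (log2 fold change -0.41, adjusted p = 0.0085) and from 31.3 in Normoxia D11 to 71.2 in Hypoxia D11 (1.15, adjusted p = 5.6e-08). The genes named from this list were chosen after their values were seen, so these p-values are a description. Tasor, a subunit of the HUSH silencing complex, was lower at D7, at 4.56 against 13.8 TPM, and higher at D11, at 17.5 against 5.45. The maintenance methyltransferase Dnmt1 was at 3.94 against 9.2 TPM and at 10.5 against 3.32. Uhrf1, which guides Dnmt1 to replicated DNA, and Sumo2 were the 2 lower at D11, at 3.22 against 8.71 and at 310 against 674 TPM, in the direction of Zfp367 and Zfp143.

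Other C2H2 factors, outside the Zfp names, were set beside them. Of 44 listed, 18 have a symbol, which came from the same supplement as those of the members. At D7, 7 were higher and 5 lower, beside 9.97% and 39.2% of all mRNAs, with a median 0.37 above that of all mRNAs. The Zfp members lay 0.58 below it, but 69 of the 113 were listed as DE at D7. The 22 neighbours lay 0.07 below it. Bcl6, a repressor in fat and immune cells, rose from 1.49 to 5.9 TPM (log2 fold change 1.47, adjusted p = 7.4e-08), and Klf10 from 6.57 to 14.1 (1.00, adjusted p = 3.3e-06). The genes named here were chosen after their values were seen, so these p-values are a description. Klf3 fell from 8.65 to 4.92 TPM. At D11, 12 of the 18 were higher and 0 lower, a share of 66.7% that is near the 63.3% of all mRNAs, among them Klf9, a promoter of adipogenesis, at 55.4 against 13.7 TPM, and Klf3 at 21.5 against 6.7. The difference between these factors and the Zfp members was not tested.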

How the data were processed

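RNA depleted of ribosomal RNA from preadipocytes was sequenced as 20 strand-specific libraries. Per the labels and the study's methods, the authors called bases with CASAVA 1.8.2, used STAR 2.6.0c for alignment against the CriGri-PICR genome and deposited TPM values per gene from kallisto 0.44.0, keeping mRNAs above 1 TPM in both libraries of a group. Read counts per gene were not used here, so the precision of a low TPM is unknown, and the edgeR test of the study was replaced. Log2(TPM + 1) of all 10318 mRNAs was fitted with limma 3.58.1 (R 4.3.3; 10 group means, eBayes with trend, 10 residual degrees of freedom), with Benjamini-Hochberg adjustment over all mRNAs within each contrast and an adjusted p under 0.05, two-sided. Relative values have the median of all mRNAs subtracted. Summaries and figures used pandas 2.3.3, numpy 2.4.6 and matplotlib 3.10.9 (Python 3.11.15). The fit was tested on simulated data.

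The members and lists were chosen with earlier results of these data known. Symbols came from the supplementary tables, which name 3858 mRNAs. Genes are named when they are among the 4 largest relative rises or falls of a timepoint, or of normoxia D11 against D0, that passed the test, had at least 2 TPM in the higher group and did not overlap; among the 5 highest means; or of known function. Zfp184 and Zfp800 and the genes of other lists were chosen after their values were seen. Alternatives were a pseudocount of 0.1, a filter at 5 TPM, centred libraries, quantile normalization, a replicate block, fits of the compared groups alone, a log2 threshold of 1 and leaving out each library. A description by protein pattern was not run, since protein sequences were not at hand. The lncRNA table was not used.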

Additional observations from a re-analysis of the deposited data

Results flagged for a closer look

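The effect of hypoxia differed between D7 and D11, tested as a contrast of the 2 effects in 1 limma model with an adjusted p under 0.05. The D11 effect minus the D7 effect was positive in 106 of the 113 members and negative in 3, beside 62.6% and 12.1% of all mRNAs. The study had listed 91 of the 113 as DE in these libraries, so the count is partly fixed by the choice. Of the 22 neighbours 20 were positive and 1 negative, with a median 0.33 above that of all mRNAs. With centred libraries 9 of the 22 were positive and 3 negative. Among named members with effects of opposite direction at the 2 timepoints, the D11 effect minus the D7 effect was 5.04 on the log2 scale for Zfp113, 3.43 for Zfp629, 3.36 for each of Zfp239, Zfp553 and Zfp60, 3.31 for Zfp473 and 3.17 for Zfp386. It was 2.61 for Zfp24, 2.59 for Zfp830, 2.56 for Zfp566, 2.26 for Zfp964, 2.17 for Zfp90, 2.01 for Zfp260 and 2.00 for Zfp28. Zfp512b had 1.98, Zfp687 1.96, Zfp608 1.90, Zfp654 1.88, Zfp810 1.67, Zfp219 1.59 and Zfp637 0.83. The sign was the other way for Zfp367 at -2.54 and Zfp143 at -1.80. An exchange of the D11 labels and an opposite response cannot be told apart from these files, and the study's protein, lipid and qRT-PCR measurements at D11 were not analysed here.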

How the results depend on the processing

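With 2 libraries a group and no read counts, low members carry an unknown counting error. Given below are counts of members higher and lower, in that order, and relative medians, where they left the range of 1.5 times or of the spread. Shares of all mRNAs are given above for centred libraries and below for quantile normalization. For the other settings they are not given, so those counts describe the members alone. With centred libraries, 8 members were higher at D0, 21 at D1 and 20 at D3, D7 gave 13 higher, D11 5 lower, normoxia D11 over D0 13 higher, hypoxia D11 over D0 32 lower and the difference between D11 and D7 8 negative. With quantile normalization the D0 counts were 5 and 5, 15 were higher at D1 and 17 at D3, D7 gave 15 higher, D11 72 and 6, normoxia D11 over D0 14 higher, hypoxia D11 over D0 27 and 36, and the difference 8 negative. Its relative medians were 0.42 at D11, -0.453 for normoxia D11 over D0 and 0.937 for the difference. Of all mRNAs, quantile normalization gave 6.13% higher and 6.07% lower at D0, 16% higher at D1 and 19.1% higher at D3. It gave 28.2% higher at D7, and 35% higher and 30.9% lower at D11. For normoxia D11 over D0 34.8% were higher, for hypoxia D11 over D0 35.4% higher and 35.1% lower, and for the difference 32.8% negative. A log2 threshold of 1 left 0 and 0 for D0, 1 and 1 for D1, 1 and 0 for D3, 0 and 42 for D7, 67 and 1 for D11, 1 and 53 for normoxia D11 over D0 and 4 and 3 for hypoxia D11 over D0. With the filter at 5 TPM, which kept 8019 mRNAs and 62 members, D7 gave 2 and 45, D11 58 higher, normoxia D11 over D0 48 lower, hypoxia D11 over D0 24 higher and the difference 57 positive, with relative medians of -0.733 at D7 and 1.38 for the difference. With a pseudocount of 0.1, 1 was lower at D0, and the relative medians were -0.955 at D7, 0.966 at D11, -0.877 for normoxia D11 over D0 and 1.91 for the difference. A pair of called named results became called in the other direction, the difference of Zfp516 with quantile normalization (-0.602) and the D11 effect of Zfp637 with centred libraries (-0.228), while others, Zfp593 and Zfp335 at D11 among them, changed sign without a call. The cause was not tested.

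Leaving out each library in turn gave 1 to 2 higher and 0 to 1 lower at D0, 3 to 8 and 8 to 13 at D1, 6 to 10 and 6 to 13 at D3, 3 to 5 and 80 to 84 at D7, and 102 to 109 and 2 to 4 at D11. It gave 3 to 7 and 88 to 95 for normoxia D11 over D0, 30 to 40 and 11 to 15 for hypoxia D11 over D0, and 101 to 106 and 2 to 4 for the difference. Relative medians ranged from -0.686 to -0.498 at D7, 0.587 to 0.666 at D11, -0.645 to -0.562 for normoxia D11 over D0 and 1.06 to 1.26 for the difference. Where this left 1 library in a group, that library was assumed to vary like the other groups.

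The labels do not say whether same-numbered libraries share more than a number. Over 45 pairs of groups their deviations had r from -0.435 to 0.372. Between the groups of a timepoint r was 0.15, -0.12, 0.08, 0.01 and 0.28 in timepoint order. The replicate block gave 3 and 3, 7 and 12, 9 and 14, 4 and 85, and 109 and 2 in the same order, 7 and 94 for normoxia D11 over D0, 42 and 16 for hypoxia D11 over D0, and 106 and 3 for the difference.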
